A study of Mus musculus with 12 samples.

Results

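Cytotoxic granule genes were followed in a mouse T cell leukemia line, 8946, that carried a Notch1 mutant, added Zmiz1, both or neither. The 10 genes were Gzma, Gzmb, Gzmc, Gzmk, Gzmm, Prf1, Srgn, Nkg7, Ctsc and Serpinb9, matched by symbol among 23284 gene symbols, and all 10 were found. The set was chosen by the measured FPKM of Gzma (granzyme A), which was higher with one vector and lower with the other. The differences of Gzma between groups are therefore given as a description, without a test, and the tests below concern the other 9 genes.

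Cytotoxic lymphocytes store serine proteases called granzymes in secretory lysosomes, bound to the proteoglycan serglycin. On contact with a target cell the granules are released, perforin forms pores, and the granzymes enter the target and trigger its death. Granzymes are made as inactive precursors that cathepsin C activates by removing a dipeptide, and intracellular serpins protect the cell that makes them. The program is best known from natural killer cells and activated CD8 T cells, and granzyme A is also made by some immature and innate-like T cells.

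RNA was sequenced in 4 groups of 3 libraries, and levels are in FPKM, read fragments scaled to transcript length and library total, so that genes can be set side by side. All cells carried a pair of retroviral vectors and were sorted for both vector markers, GFP and NGFR. Control cells carried the empty MigR1 and empty NGFR vectors, and combined cells carried the Notch1 mutant L1601P with GFP and Zmiz1 with NGFR. The single-vector groups are named in conflicting ways: those titled Zmiz1 carry L1601P/NGFR as their cell line, and those titled Notch1 carry MigR1/Zmiz1. The column headers of the files (ZMIZonly, Notchonly) go with the titles, and so did the vector genes. Zmiz1 was at 67.7 to 74.4 FPKM in Zmiz1-titled and 47.6 to 51.0 in combined libraries against 0.170 to 0.221 elsewhere, and Notch1 was at 22.1 to 42.2 FPKM in Notch1-titled and combined libraries against 1.80 to 2.34 elsewhere. The groups are called Zmiz1-titled and Notch1-titled below. The labels do not say whether replicate libraries are independent transductions, so the p-values reflect only how far these libraries differ, which may be technical. The line stands for a single leukemia.

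The libraries were of similar size, with FPKM sums of 549098 to 606908 and 14233 to 14554 genes above 0. Read totals were not analysed here. Relative depth, estimated from the smallest FPKM values, was lowest in Zmiz1-titled replicate 2 at 0.731 of the mean library and highest at 1.23 in Notch1-titled replicate 1. Ngfr, the gene of one sorting marker, was at 61.4 to 88.9 FPKM where the NGFR vector was empty and at 5.62 to 7.71 FPKM where it carried Zmiz1. A T cell list of 9 genes, which includes the general leukocyte gene Ptprc, had a summed level between 3177 and 4175 FPKM. The T cell identity of the line was visible in the other genes of that list and in Cd8a and Cd8b1, with a sum of 1468 to 2045 FPKM for Cd8a and Cd8b1.

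Of the 10 granule genes, 4 were listed at 0 FPKM in every library, 1 lay above 0 but under the filter of a mean of 1 FPKM, and 5 were tested. Gzma was at 227 to 2379 FPKM while Gzmb, Gzmc, Gzmk and Nkg7 were listed at 0 in all 12 libraries. Gzmb (chromosome 14, 56258838 to 56262260, GRCm38) encodes the granzyme that cleaves after aspartate and activates caspases, and Gzmc (chromosome 14, 56231441 to 56234656) lies 24.2 kb from it in the same granzyme cluster. Nkg7 (chromosome 7, 43437073 to 43438249) encodes a granule membrane protein. The other 5 granzymes of that cluster (Gzmd, Gzme, Gzmf, Gzmg and Gzmn) were also listed at 0 throughout. A listed 0 can be a failed estimate in files of this kind, and Vamp7, a vesicle fusion gene used by most cells, was listed at 0 in every library too.

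Gzma (chromosome 13, 113093825 to 113100981, minus strand) and Gzmk (chromosome 13, 113171608 to 113225908, minus strand) both encode granzymes that cleave after basic residues, and they lie 70.6 kb apart in GENCODE M21. The 250 bases before the RefSeq start of each are shown because these neighbours stood at opposite ends of the range of listed levels, together with those of Prf1, whose values ran against those of Gzma. The sequences are from RefSeq (GRCm38.p6), 5′ to 3′ on the gene's strand. They are at chr13:113100982-113101231 (minus strand) for Gzma, chr13:113180966-113181215 (minus strand) for Gzmk, within an intron of a longer GENCODE gene model, and chr10:61297586-61297835 (plus strand) for Prf1. Capitals mark matches, on either strand, to the short motifs listed after the sequences.
Gzma: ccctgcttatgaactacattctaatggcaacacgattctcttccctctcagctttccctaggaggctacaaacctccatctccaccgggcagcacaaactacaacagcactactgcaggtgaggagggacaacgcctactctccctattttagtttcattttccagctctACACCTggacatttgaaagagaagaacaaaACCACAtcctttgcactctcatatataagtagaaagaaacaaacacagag
Gzmk: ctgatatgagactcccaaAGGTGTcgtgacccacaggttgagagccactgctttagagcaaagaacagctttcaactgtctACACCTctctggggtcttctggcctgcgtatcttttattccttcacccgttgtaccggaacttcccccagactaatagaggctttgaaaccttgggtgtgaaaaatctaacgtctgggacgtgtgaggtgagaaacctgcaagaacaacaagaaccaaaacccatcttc
Prf1: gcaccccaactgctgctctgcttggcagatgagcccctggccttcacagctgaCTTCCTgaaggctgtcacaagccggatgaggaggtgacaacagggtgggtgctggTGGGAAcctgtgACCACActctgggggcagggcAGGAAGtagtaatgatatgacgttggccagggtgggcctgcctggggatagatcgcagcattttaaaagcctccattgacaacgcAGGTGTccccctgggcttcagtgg

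Searched on both strands were the RUNX word TGTGGT, the ETS word AGGAAG, the STAT word TTCNNNGAA, the word TGGGAA of RBPJ, the DNA-binding partner of Notch, the AP-1 word TGANTCA, the T-box word AGGTGT and the TATA box word TATAAA. No matches overlapped in these 3 windows. The Gzma window held a RUNX match that starts 50 bases before the gene start and a T-box match at 80 bases, both on the opposite strand, and no RBPJ, ETS or STAT match. Gzmk held T-box matches at 232 and 169 bases and none of the other motifs. Prf1 held an RBPJ match at 142 bases, ETS matches at 197 and 109, a RUNX match at 130 and a T-box match at 24. Such short words are common: among 32817 windows of the same length, 14.0% held the RUNX word, 11.8% the T-box word, 29.5% the ETS word, 21.6% the RBPJ word, 7.01% the STAT word, 6.75% the AP-1 word and 12.4% the TATA box word. All 10 genes matched the RefSeq table by symbol.

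Gzma was highly expressed without either insert. It stood at 635, 686 and 611 FPKM in the 3 control libraries, 2379, 2119.7 and 2262 in Zmiz1-titled, 227, 246 and 279 in Notch1-titled, and 1143.5, 1153 and 1085 in combined libraries. No library of any group overlapped another group, and the order from low to high was Notch1-titled, control, combined, Zmiz1-titled. By rank of FPKM within a library, Gzma was the 120th to 133rd gene in control libraries, the 21st to 27th in Zmiz1-titled, the 325th to 372nd in Notch1-titled and the 78th to 83rd in combined libraries. It made up 0.371% to 0.416% of all FPKM in Zmiz1-titled libraries against 0.0413% to 0.0459% in Notch1-titled libraries. In bulk RNA, fewer cells that express a gene and less RNA per cell cannot be told apart.

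**Figure D1:**
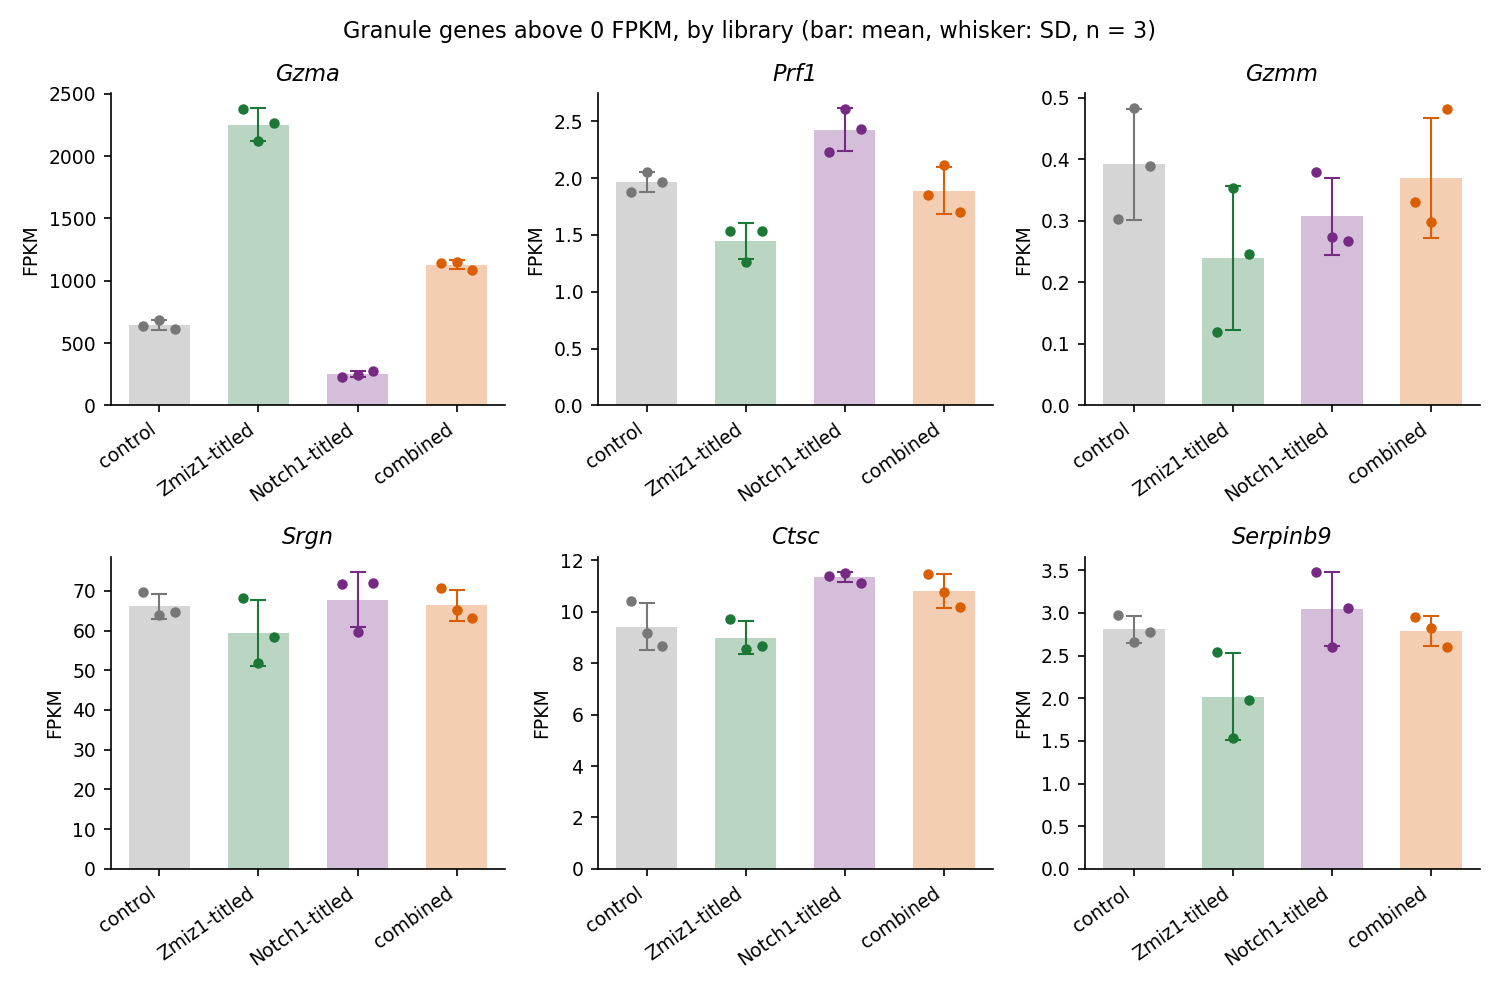
FPKM of the 6 granule genes above 0 in each of the 12 libraries (points), with the group mean (bar) and SD (whisker, n = 3), each panel on its own linear axis from 0. Gzma separates the 4 groups, with Notch1-titled libraries at 227 to 279 and Zmiz1-titled libraries at 2119.7 to 2379 FPKM, whereas Srgn libraries overlap between every pair of groups.

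The direction of the Gzma difference was the same for each vector whether or not the other was present. The control mean was 644 ± 38.1 FPKM, the Zmiz1-titled mean 2253 ± 129.7, the Notch1-titled mean 250.4 ± 26.2 and the combined mean 1127 ± 36.7 (± SD, n = 3 libraries a group, here and throughout). The Zmiz1 vector went with a level 3.50 times the control, and between pairs of single libraries the ratio ran from 3.09 to 3.89. Where the Notch1 mutant was present, combined libraries were at 4.50 times the Notch1-titled level (3.89 to 5.08 between single libraries). The Notch1 mutant went with 0.389 times the control level (0.331 to 0.456), and with 0.500 times the Zmiz1-titled level where Zmiz1 was added (0.456 to 0.544). The product of the single-vector ratios was 1.36 and the combined ratio to the control was 1.75. The pairwise comparisons share libraries, so these ratios are not independent of each other.

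Markers of other cell types that carry granzymes or granule proteins were low in these libraries. Of 9 natural killer cell markers 4 (Ncr1, Klrd1, Klrk1 and Klre1) were listed at 0 throughout, and the summed level of the 9 was 0.641 to 1.18 FPKM in control, 1.04 to 1.13 in Zmiz1-titled, 0.701 to 0.786 in Notch1-titled and 0.590 to 0.961 in combined libraries. Of 8 mast cell markers 5 were listed at 0 (Fcer1a, Ms4a2, Tpsab1, Tpsb2 and Mcpt4). The sum of the 8 was 0.0894 to 0.101 FPKM in Zmiz1-titled libraries and at most 0.0310 in any other library. Most of the Zmiz1-titled sum was Cpa3, at 0.0767 to 0.0947 FPKM there and at most 0.0234 in any other library. Of 10 myeloid markers in the files, Elane, Prtn3, Ctsg, S100a8 and S100a9 were listed at 0 and the sum without Itgam was 0.0713 to 0.240 FPKM, with 0.121 to 0.240 in Zmiz1-titled libraries. Itgam, an integrin chain of myeloid and natural killer cells, was itself at 99.5 ± 2.08, 96.2 ± 4.43, 55.7 ± 4.12 and 59.9 ± 1.36 FPKM in control, Zmiz1-titled, Notch1-titled and combined libraries. The summed B cell markers were at 0.126 to 0.554 FPKM. Apart from Itgam, each of these sums was under 1.2 FPKM, and their part in the Gzma differences was not tested.

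Granzyme M stayed near the lower end of measurement. Gzmm (chromosome 10, 79689020 to 79695261) encodes a granzyme that cleaves after methionine and leucine. Its values were 0.304, 0.483 and 0.388 FPKM in control, 0.118, 0.353 and 0.246 in Zmiz1-titled, 0.379, 0.274 and 0.267 in Notch1-titled, and 0.331, 0.299 and 0.481 in combined libraries. Every pair of groups overlapped. Tests were made in limma, a linear model fitted across all genes on log2(FPKM + 1), and a gene was called at an adjusted p under 0.05. Differences below are on that scale, which understates changes of low genes. In the fit without the filter on low values Gzmm was not called in any comparison, with Zmiz1-titled minus control at -0.17 (95% interval -0.34 to 0.00, adjusted p = 0.437).

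Perforin, the pore former, was present at a low level and ordered the other way from Gzma. Prf1 (chromosome 10, 61297833 to 61304680) was at 1.88, 2.05 and 1.96 FPKM in control, 1.54, 1.26 and 1.53 in Zmiz1-titled, 2.23, 2.61 and 2.43 in Notch1-titled, and 1.85, 2.11 and 1.71 in combined libraries. The order from low to high was Zmiz1-titled, combined, control, Notch1-titled, and only combined and control libraries overlapped. Prf1 was lower in Zmiz1-titled than in Notch1-titled libraries (1.44 ± 0.159 against 2.42 ± 0.189 FPKM, log2 fold change -0.49, SE 0.08, limma adjusted p = 0.00391), and it kept that call in all 18 alternatives that tested it (adjusted p 0.00369 to 0.0400). Against the control the differences were -0.28 in Zmiz1-titled (95% interval -0.46 to -0.10, adjusted p = 0.150) and 0.21 in Notch1-titled libraries (0.02 to 0.39, adjusted p = 0.204), and neither passed. With the other vector present they were -0.25 for Zmiz1 (-0.43 to -0.06, adjusted p = 0.293) and 0.24 for the Notch1 mutant (0.06 to 0.43, adjusted p = 0.169). Combined and control libraries, neighbours in the order, differed by -0.04 (-0.22 to 0.15).

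The balance of the pair differed widely between groups. Per length, Gzma exceeded Prf1 by 311 to 338 times in control, 1474 to 1682 times in Zmiz1-titled, 94.1 to 115 times in Notch1-titled and 546 to 636 times in combined libraries. Gzma and Prf1 had a Pearson correlation of -0.893 over the 12 libraries on the log2(FPKM + 1) scale. The points share the 4 groups, so this describes the order of the groups rather than 12 independent values.

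Serglycin, the core protein on which granzymes and perforin are stored, had the highest level of the 10 genes after Gzma. Srgn (chromosome 10, 62493833 to 62527451) was at 69.8, 64.0 and 64.6 FPKM in control, 68.3, 51.7 and 58.4 in Zmiz1-titled, 71.6, 59.8 and 72.1 in Notch1-titled, and 70.8, 65.1 and 63.3 in combined libraries. All groups overlapped, and the lowest value was that of Zmiz1-titled replicate 2, the library of the lowest relative depth. The difference with Zmiz1 was -0.16 (95% interval -0.39 to 0.07, adjusted p = 0.581) and with the Notch1 mutant 0.03 (-0.20 to 0.26, adjusted p = 0.922). The intervals reached no further than -0.39 and 0.26, against differences of 1.81 and -1.36 for Gzma.

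Cathepsin C, the activating protease of granzymes, was slightly higher where the Notch1 mutant was present. Ctsc (chromosome 7, 88278085 to 88310888) was at 10.4, 9.17 and 8.68 FPKM in control, 9.73, 8.55 and 8.68 in Zmiz1-titled, 11.4, 11.5 and 11.1 in Notch1-titled, and 11.5, 10.8 and 10.2 in combined libraries. Every Notch1-titled library was above every control library, and every combined library above every Zmiz1-titled one. The differences with the Notch1 mutant did not pass the threshold, at 0.25 against the control (95% interval 0.08 to 0.41, adjusted p = 0.0898) and 0.24 against Zmiz1-titled libraries (0.08 to 0.41, adjusted p = 0.120). With Zmiz1 they were -0.06 against the control (-0.23 to 0.10) and -0.07 against Notch1-titled libraries (-0.23 to 0.10). Zmiz1-titled libraries were lower than Notch1-titled ones (-0.31, SE 0.07, adjusted p = 0.0238). That call was lost without Zmiz1-titled replicate 2 or 3 (adjusted p = 0.0585 and 0.0643) and without Notch1-titled replicate 1, 2 or 3 (0.0551, 0.0705 and 0.0525), at -0.28 to -0.32. It was also lost with only the groups compared (0.128) and under median ratio scaling (0.0519).

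Serpinb9, the serpin that inhibits granzyme B, was lowest where Zmiz1 was added alone. It lies on chromosome 13, 33003250 to 33017957, and was at 2.98, 2.66 and 2.78 FPKM in control, 2.54, 1.53 and 1.98 in Zmiz1-titled, 3.48, 2.60 and 3.06 in Notch1-titled, and 2.95, 2.82 and 2.60 in combined libraries. All 3 Zmiz1-titled values lay below every other library, and the remaining groups overlapped. The lowest was again Zmiz1-titled replicate 2, and the part of its depth in the result was not tested. Against the control the difference was -0.35 (95% interval -0.61 to -0.08, adjusted p = 0.227), and combined minus Zmiz1-titled was 0.34 (0.07 to 0.61, adjusted p = 0.178). Zmiz1-titled minus Notch1-titled passed (-0.43, SE 0.12, adjusted p = 0.0451). It did not pass without Zmiz1-titled replicate 2 (-0.31, adjusted p = 0.101) or 3 (0.0865), Notch1-titled replicate 1 (0.109) or 3 (0.113), or any 1 control or combined library (0.0617 to 0.0690). It also did not pass with only the groups compared (0.217), without the filter (0.0676), or under median ratio scaling (0.0669) or quantile normalization (0.0833).

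**Figure D2:**
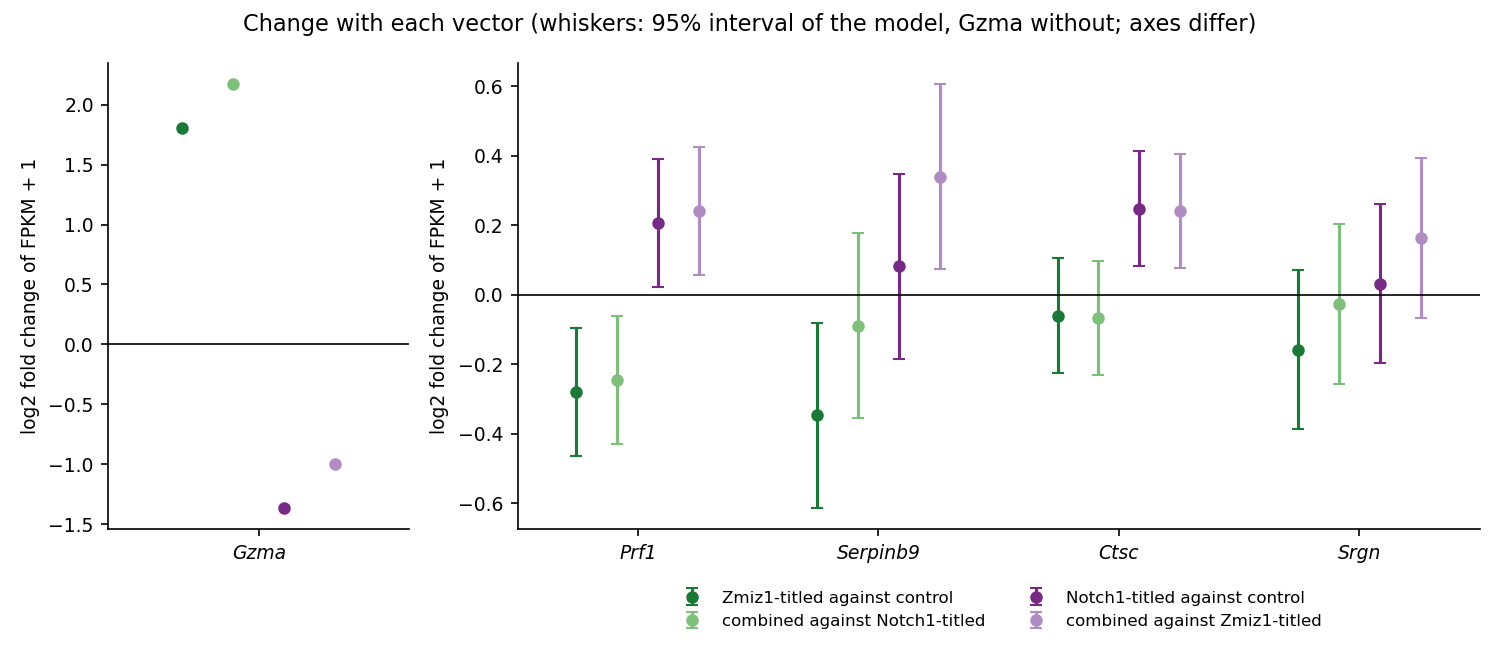
Log2 fold change of FPKM + 1 for the 5 tested granule genes with the Zmiz1 vector (green) and with the Notch1 mutant (purple), each in the absence (dark) and presence (light) of the other. Whiskers are 95% intervals of the limma model, left off for Gzma, whose axis is wider: Gzma spans -1.36 to 2.17 while the other 4 genes stay between -0.35 and 0.34.

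Of the 9 genes other than Gzma, 4 were tested, and calls in limma came only in Zmiz1-titled against Notch1-titled libraries. For 4 genes, a count of 0 is near the shares of all genes given for the other comparisons. In Notch1-titled against control libraries 0 of the 4 tested passed, beside 5.49% of all 10152 genes tested, and 2 had an unadjusted p under 0.05. The share of all genes at an unadjusted p under 0.05 was not counted, so such counts, here and below, have no background beside them. In Zmiz1-titled against control libraries 0 passed (2 at an unadjusted p under 0.05) beside 2.11% of all genes. In combined against Zmiz1-titled libraries 0 passed (3 unadjusted) beside 3.86%, and in combined against Notch1-titled libraries 0 passed (1 unadjusted) beside 1.51%. In combined against control libraries 0 passed (1 unadjusted) beside 6.46%. Zmiz1-titled against Notch1-titled libraries differed in both vectors, and there Prf1, Ctsc and Serpinb9 were lower, 3 of the 4 tested beside 10.9% of all genes in either direction and 6.56% that were lower. In the same comparison both CD8 markers were lower (Cd8a at -0.30, adjusted p = 0.00100, and Cd8b1 at -0.37, adjusted p = 0.00433). So were 5 of 9 genes of the T cell list (Cd3d, Cd3e, Cd3g, Cd5 and Lck). With only the groups compared, Cd8a, Cd8b1, Cd3d, Cd3e, Cd3g and Cd5 did not pass (0.0715 to 0.202). Cd3e was lost in 15 of 19 alternatives, Cd3g in 4 and Lck in 0. The part of these CD8 and T cell genes in the result was not tested. The count of 3 was 1 without Zmiz1-titled replicate 2 or 3 or Notch1-titled replicate 1 or 3. In the interaction, which asks whether the change with one vector depends on the other, 0 of the 4 passed and 0 had an unadjusted p under 0.05, beside 0.069% of all genes.

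Lists of other granule genes were set beside the granzymes, and genes named from them that did not pass were picked for their role after their values were seen. The lysosomal proteases and their cystatin inhibitors included a gene that followed Zmiz1. Ctsl, a lysosomal cysteine protease of high abundance, was at 679.5, 598.5 and 595 FPKM in control, 1106, 1138 and 979 in Zmiz1-titled, 601, 545 and 602 in Notch1-titled, and 847.5, 787 and 787 in combined libraries. Zmiz1-titled and combined libraries all lay above control and Notch1-titled libraries, which overlapped each other. Ctsl rose with Zmiz1 by 0.78 against the control (SE 0.08, adjusted p = 3.69e-04) and by 0.47 against Notch1-titled libraries (adjusted p = 0.0120), and it fell by 0.41 in combined against Zmiz1-titled libraries (adjusted p = 0.0147). The rise of 0.47 did not pass without Notch1-titled replicate 2 (0.0646) or combined replicate 1 (0.0705), and the fall not without Zmiz1-titled replicate 1 (0.0556) or combined replicate 2 (0.0788) or 3 (0.0718). With only the groups compared neither passed (0.0517 and 0.0620).

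Cathepsin W, a protease named from natural killer and CD8 T cells, went the other way. Ctsw was at 4.36, 4.66 and 5.17 FPKM in control, 1.87, 2.79 and 3.05 in Zmiz1-titled, 3.11, 3.49 and 3.07 in Notch1-titled, and 2.37, 2.07 and 2.12 in combined libraries. All control libraries were above all others. It fell with Zmiz1 alone by 0.70 (adjusted p = 0.0144), not passing without control replicate 2 (0.0619) or 3 (0.0827) or with only the groups compared (0.154). The difference with the Notch1 mutant alone was -0.44 (95% interval -0.70 to -0.17, adjusted p = 0.0620). Cst7, the cystatin that inhibits cathepsin C, was at 1.38 ± 0.497, 1.07 ± 0.0345, 1.32 ± 0.253 and 1.05 ± 0.321 FPKM in control, Zmiz1-titled, Notch1-titled and combined libraries. Of the 8 tested genes of this list, 1 rose and 1 fell with Zmiz1 against the control and 1 rose with Zmiz1 where the Notch1 mutant was present. With the Notch1 mutant 0 passed against the control in limma (1 at an unadjusted p under 0.05, and 1 fell without any 1 of the Zmiz1-titled libraries), and 1 fell against Zmiz1-titled libraries. Of all genes, 1.07% rose and 1.03% fell with Zmiz1 against the control, and 0.827% rose and 0.68% fell in combined against Notch1-titled libraries. With the Notch1 mutant 3.19% rose and 2.3% fell against the control, and 2.67% rose and 1.19% fell against Zmiz1-titled libraries. The list medians ran from -0.16 to 0.01, beside 0.00 to 0.02 for all genes tested.

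In the exocytosis list, 2 Rab27 effectors rose with Zmiz1. Sytl3 was at 0.974, 1.20 and 1.10 FPKM in control, 5.07, 6.25 and 5.13 in Zmiz1-titled, 1.29, 1.28 and 1.45 in Notch1-titled, and 3.93, 4.57 and 4.33 in combined libraries. Sytl2 was at 4.05, 4.45 and 4.66, at 9.05, 14.0 and 9.71, at 4.13, 4.65 and 4.03, and at 7.36, 7.85 and 8.57 FPKM in the same order. For both genes every library with the Zmiz1 vector was above every library without it. Against the control the rises were 1.63 for Sytl3 (SE 0.09, adjusted p = 2.79e-06) and 1.12 for Sytl2 (SE 0.13, adjusted p = 0.00130, but 0.0669 with only the groups compared). Against Notch1-titled libraries they were 1.17 (adjusted p = 4.78e-05) and 0.76 (adjusted p = 0.0165), the latter not passing without Notch1-titled replicate 1 (0.0707) or 3 (0.0670) or combined replicate 1 (0.0508), 2 (0.0672) or 3 (0.0905).

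Rab27a itself, the GTPase that docks cytotoxic granules, was at 30.4 ± 0.360, 29.0 ± 3.79, 27.7 ± 0.415 and 28.8 ± 0.389 FPKM in control, Zmiz1-titled, Notch1-titled and combined libraries. Unc13d, the priming factor of granule release, was at 2.42 ± 0.394, 2.39 ± 0.351, 2.31 ± 0.153 and 2.40 ± 0.208 FPKM. Neither passed in any comparison, and Unc13d overlapped between all groups, whereas every Notch1-titled library lay below every control library for Rab27a. Of the 11 tested exocytosis genes, Sytl2 and Sytl3 were the ones that passed with Zmiz1, in each of its comparisons. Of all genes, 1.07% rose with Zmiz1 against the control and 0.827% in combined against Notch1-titled libraries. With the Notch1 mutant 0 passed in limma against the control (0 at an unadjusted p under 0.05). Against Zmiz1-titled libraries 0 passed too (2 at an unadjusted p under 0.05). Among all genes 5.49% and 3.86% passed there in either direction, so a count of 0 among 11 genes is near these shares. In Notch1-titled against control libraries 1 rose without Zmiz1-titled replicate 2, and in combined against Notch1-titled libraries 1 fell without it. Vamp8, an exocytosis list gene under the filter, rose in combined against Zmiz1-titled libraries in the fit without the filter (0.07, adjusted p = 0.0284). Its level was 0.0502 ± 0.00693 FPKM in combined libraries and 0 in Zmiz1-titled libraries, near the lower end of measurement.

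**Figure D3:**
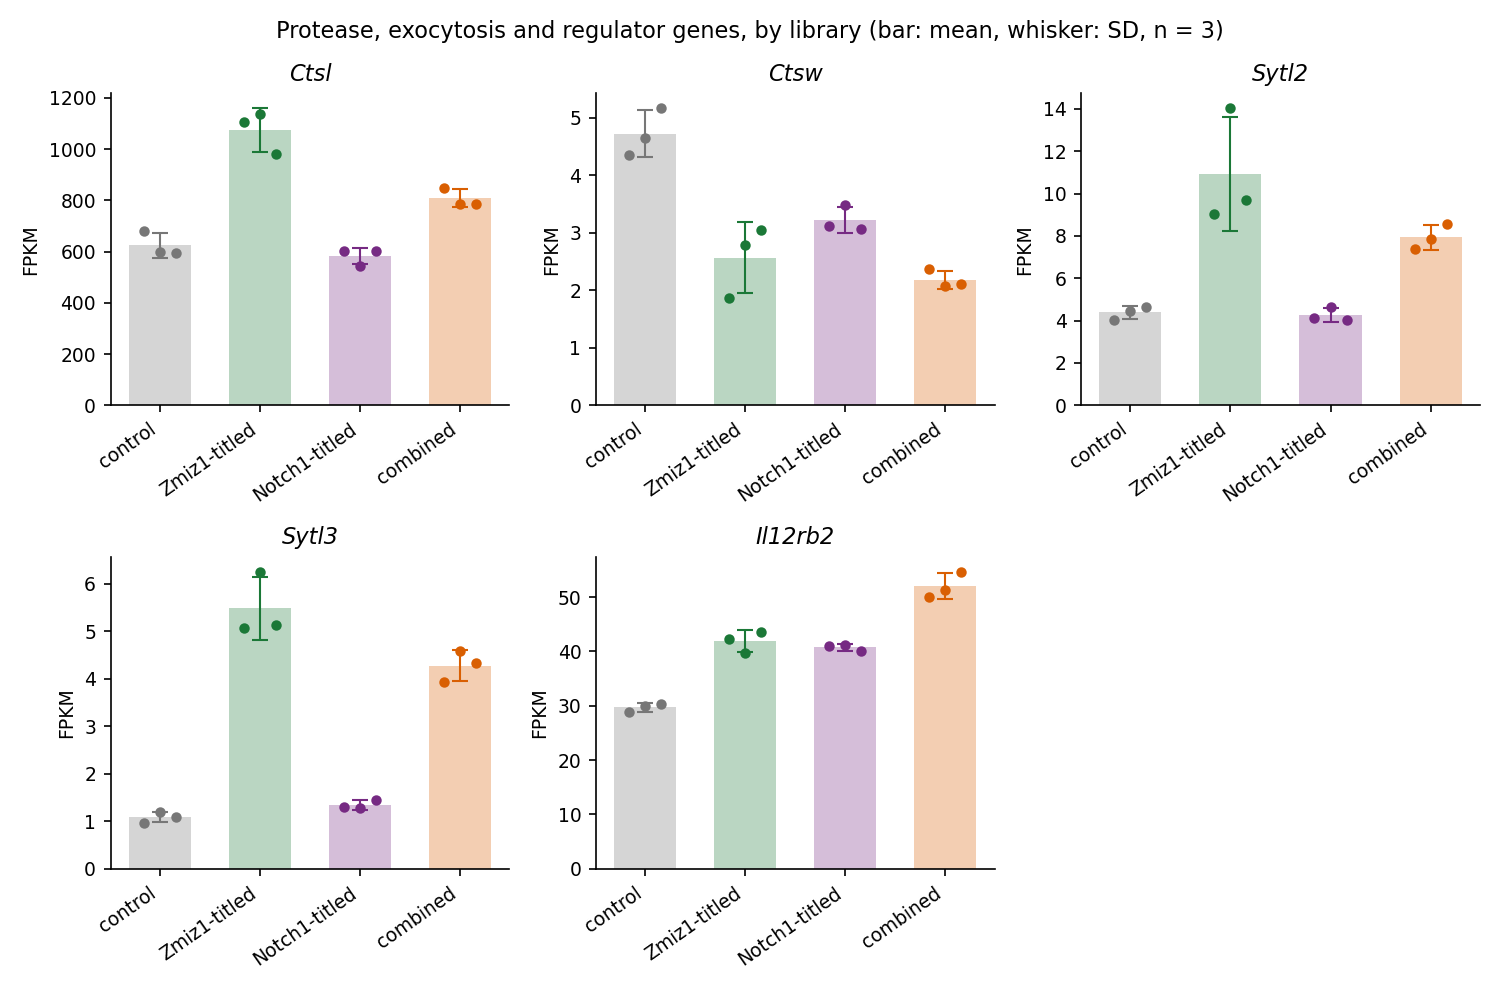
FPKM in each of the 12 libraries (points) of the 5 genes of the protease, exocytosis and regulator lists that passed in a comparison of 1 vector, with the group mean (bar) and SD (whisker, n = 3), on linear axes from 0. Sytl3 was at 3.93 to 6.25 FPKM in libraries with the Zmiz1 vector and at 0.974 to 1.45 in those without, whereas Ctsw was highest in the control.

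Lysosome membrane and sorting genes showed no call. Lamp1, a granule membrane protein, was at 117 ± 2.95, 119 ± 7.65, 111 ± 5.80 and 108 ± 1.35 FPKM, and M6pr, a receptor that carries granzymes to lysosomes, at 71.4 ± 1.92, 69.3 ± 1.89, 75.8 ± 2.09 and 70.6 ± 1.49 FPKM, in control, Zmiz1-titled, Notch1-titled and combined libraries. Of 7 tested genes 0 passed in limma in each comparison of 1 vector. At an unadjusted p under 0.05 there were 2 and 1 for the Notch1 mutant and 0 for Zmiz1. Of all genes, 5.49% passed with the Notch1 mutant and 2.11% with Zmiz1 against the control. Where the other vector was present the shares were 3.86% and 1.51%, so 0 of 7 lies near them. Among 9 further serpins, 4 were listed at 0 and 1, Serpinb6a, was tested and did not pass in a comparison of 1 vector (14.8 ± 0.744, 15.6 ± 1.22, 13.9 ± 0.490 and 14.3 ± 0.901 FPKM). In the fit without the filter Serpinb1a, an inhibitor of neutrophil proteases, rose with Zmiz1 against the control (0.39, adjusted p = 0.00401) and fell in combined against Zmiz1-titled libraries (-0.25, adjusted p = 0.0289). Its level was 0.0779 ± 0.0685, 0.410 ± 0.0353, 0.0311 ± 0.0269 and 0.187 ± 0.0672 FPKM in control, Zmiz1-titled, Notch1-titled and combined libraries. Serpinb9b fell in that fit with Zmiz1 (-0.12, adjusted p = 0.00896) and with the Notch1 mutant (-0.12, adjusted p = 0.00595) against the control. Its control level was 0.0968 ± 0.0275 FPKM. Cpa3, of the mast cell markers, rose in that fit with Zmiz1 against the control (0.11, adjusted p = 0.00152). It fell in combined against Zmiz1-titled libraries (-0.12, adjusted p = 4.96e-04), and its interaction passed (-0.12, adjusted p = 0.0404). Cpa3 and Serpinb9b were each listed at 0 in 7 of 12 libraries, among them all 3 combined libraries. These calls rest on values near the lower end of measurement, and the share of all genes that passed in that fit was not counted. Of the other effectors, Ifng was listed at 0 and Fasl stayed at or below 0.0248 ± 0.0285 FPKM. Of 2 tested genes 0 passed in limma with either vector, a count near the same shares of all genes. At an unadjusted p under 0.05 there was 1 in each comparison of 1 vector against the control and 1 in combined against Notch1-titled libraries.

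Of 18 regulators of cytotoxic genes, 10 reached the filter and 8 were under it. Eomes was at 0.0364 to 0.0734 FPKM, Runx3 at 0.0472 to 0.101, Tbx21 at 0.518 to 0.730 and Prdm1 at 0.971 to 1.22 FPKM as group means, and Il2rb, a receptor chain for interleukin-2 and interleukin-15, at 0.00673 to 0.0258. Stat5b stood at 127 ± 4.78, 132 ± 5.78, 113 ± 9.61 and 122 ± 5.74 FPKM and Stat5a at 47.5 ± 3.33, 48.8 ± 3.75, 42.8 ± 3.63 and 44.3 ± 2.94 in the same order of groups, and neither passed. In comparisons of 1 vector the gene of this list that passed was Il12rb2, a chain of the interleukin-12 receptor, which was higher with either vector.

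Il12rb2 was at 28.8, 30.0 and 30.3 FPKM in control, 42.3, 39.7 and 43.6 in Zmiz1-titled, 41.0, 41.1 and 40.1 in Notch1-titled, and 50.0, 51.4 and 54.6 in combined libraries. The single-vector groups overlapped and lay between the control and the combined libraries. It rose by 0.48 with Zmiz1 (adjusted p = 9.55e-04) and by 0.44 with the Notch1 mutant (adjusted p = 8.29e-04) against the control. Where the other vector was present the rises were 0.34 (adjusted p = 0.00878) and 0.31 (adjusted p = 0.00996), and these did not pass without combined replicate 3 (0.0518 and 0.0565) or with only the groups compared (0.0520 and 0.0897). Of the 10 tested genes of this list 1 rose and 0 fell in each comparison of 1 vector. Of all genes, 1.07% rose with Zmiz1 and 3.19% with the Notch1 mutant against the control. Where the other vector was present, 0.827% and 2.67% rose. At an unadjusted p under 0.05 there were 5 for the Notch1 mutant and 1 for Zmiz1 against the control. The share of all genes at that cut-off was not counted. Without Zmiz1-titled replicate 2, 1 fell with the Notch1 mutant in both comparisons and 2 rose in combined against Notch1-titled libraries.

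In Zmiz1-titled against Notch1-titled libraries, further list genes passed, named here after their values were seen. Tnfsf10, the death ligand TRAIL, was lower, at -0.43 (adjusted p = 0.0152), and so was Ctsz, a lysosomal cysteine protease, at -0.27 (adjusted p = 0.0480). Nfil3, a transcription factor of natural killer cell development, was higher by 0.32 (adjusted p = 0.0107) and Tox, a factor of T cell development and exhaustion, by 0.61 (adjusted p = 0.0289). With only the groups compared these did not pass (0.0840, 0.229, 0.143 and 0.196). Without single libraries Tox was lost for Zmiz1-titled replicate 1 or 3 or Notch1-titled replicate 2 or 3 (0.0823 to 0.0872). Tox was at 34.0 ± 1.32, 36.7 ± 9.50, 23.2 ± 1.45 and 32.1 ± 1.95 FPKM in control, Zmiz1-titled, Notch1-titled and combined libraries. Its Zmiz1-titled values were 43.2, 25.8 and 41.1 FPKM. Notch1-titled minus control was -0.53 for Tox (95% interval -0.87 to -0.19, limma adjusted p = 0.0764). Ctsz was lost without each single library except Zmiz1-titled replicate 3 and Notch1-titled replicate 1 (0.0587 to 0.150). It was also lost without the filter (0.0591), under median ratio scaling (0.0640) and under quantile normalization (0.0559).

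By profile over the 12 libraries, the 8 tested genes most like Gzma included no other member of the set, of which only 4 were tested. The 8 highest Pearson correlations on the log2(FPKM + 1) scale were those of Etv5 (0.991), Il7r (0.988), Antxr1 (0.981), Sema6a (0.980), Itm2a (0.971), Eci3 (0.969), St3gal2 (0.967) and Atp1b1 (0.961), among the tested genes. Each took the same order of group means as Gzma, with Notch1-titled lowest and Zmiz1-titled highest, which a choice by correlation makes likely. Etv5, an ETS family transcription factor, was at 72.8, 179, 31.8 and 98.6 FPKM and Il7r, the interleukin-7 receptor, at 53.0, 129, 29.6 and 84.1 FPKM in control, Zmiz1-titled, Notch1-titled and combined libraries. The range was narrower than that of Gzma: Zmiz1-titled and Notch1-titled means of Atp1b1, a subunit of the sodium pump, were 19.2 and 11.4 FPKM. The correlations rest on 4 groups of 3 libraries and on many genes searched, and they carry no test.

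**Figure D4:**
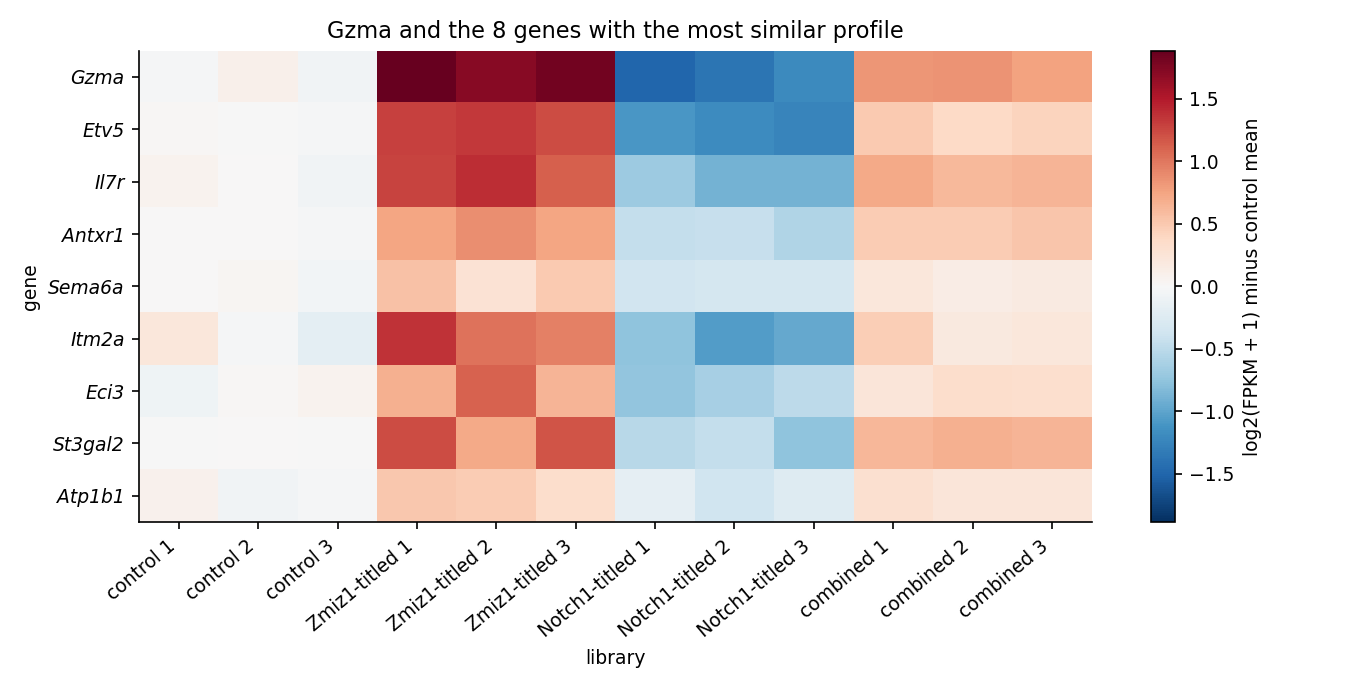
Heat map of log2(FPKM + 1) minus the control mean for Gzma and its 8 most similar genes (rows) in the 12 libraries (columns), with red above and blue below the control mean. All 9 rows are red in Zmiz1-titled and combined libraries and blue in Notch1-titled libraries.

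The other granule genes had different companions. For Prf1 the 3 most similar genes were Lck, the T cell receptor kinase (Pearson r = 0.974), Ada, adenosine deaminase (0.962), and Rab3d, a secretory vesicle GTPase (0.952). Lck was at 770 ± 28.4, 603 ± 47.5, 882 ± 41.7 and 722 ± 36.6 FPKM in control, Zmiz1-titled, Notch1-titled and combined libraries, the same order as Prf1. For Ctsc they were Cd44 (0.951), Prps2 (0.946) and Nhp2l1 (0.938), which were highest in Notch1-titled libraries, and for Serpinb9 LOC100044193 (0.966), Lbh (0.954) and Acad8 (0.942), which were lowest in Zmiz1-titled libraries. Against Gzma itself, Ctsl, Sytl2 and Sytl3 had correlations of 0.918, 0.870 and 0.848 over the 12 libraries, Serpinb9 -0.680, Ctsc -0.609 and Srgn -0.441.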

How the data were processed

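RNA of 12 sorted samples of the line 8946 was sequenced after TruSeq mRNA v2 preparation, per the labels' protocols. The values are FPKM, 1 per gene symbol and library, as deposited by the authors. The submitters' processing notes list the genome build mm10 and the tools Cuffdiff 2.1.1, Cufflinks, TopHat2 2.0.9, FastQC 0.10.0 and Bowtie2 2.1.0.0, giving no roles. Which annotation was counted, and whether libraries were scaled to each other, is not given in the sources used here. Strand was not marked by this kit, so reads of overlapping genes cannot be told apart, and near-identical granzymes and serpins can share reads.

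From these values, log2(FPKM + 1) was fitted in limma 3.58.1 (R 4.3.3) with 4 group means over all 12 libraries, an intensity trend and moderated variances, keeping the 10152 genes whose mean over libraries reached 1 FPKM. Fold changes on this scale understate those of genes near 1 FPKM. The 6 pairwise comparisons and the interaction were tested two-sided, p-values were adjusted by Benjamini-Hochberg across every gene kept, and the threshold was 0.05. With 3 libraries a group, exact permutation could reach 0.1 at the lowest and was not used. Groups followed the titles. Relative depth came from the most frequent ratio of values under 0.06 FPKM between libraries (6.62% to 27.9% of such genes within the tolerance, a weak estimate). Named were the 10 members, up to 4 called genes per list, and the most correlated genes (8 for Gzma, 3 for other called members, predicted genes passed over); uncalled list genes were picked after their values were seen. The members, lists and rules were chosen with earlier results of these data known. The pipeline was tested on simulated data. Positions are those of GENCODE M21 (GRCm38, equal to mm10). Alternatives were a pseudocount of 0.1, no filter or one at 5 FPKM, median ratio scaling, quantile normalization, a replicate block, only the groups compared, each library left out, and Gzma counted.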

Additional observations from a re-analysis of the deposited data

Results flagged for a closer look

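Zmiz1, the gene of one vector, had a different effect size in the presence of the Notch1 mutant: its interaction on the log2(FPKM + 1) scale was -0.56 (limma adjusted p = 0.0266), with 70.8 ± 3.39 FPKM in Zmiz1-titled and 49.3 ± 1.66 in combined libraries. It did not pass in 13 of 18 alternatives, among them quantile normalization and leaving out any 1 control or combined library, Zmiz1-titled replicate 1 or 3, or Notch1-titled replicate 1 or 2, and its value ran from -0.70 to -0.15. Combined minus Zmiz1-titled libraries was -0.51 for Zmiz1 (limma adjusted p = 3.12e-04). That call was lost in 1 of 19 alternatives, quantile normalization (0.0503). The level of the Zmiz1 vector therefore differed between the groups in which Gzma was compared, and the part of this in the Gzma levels was not tested.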

How the results depend on the processing

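Of 132 recounts of the called granule genes (7 comparisons), 123 were the same count or within 1.5 times it. Only Zmiz1-titled against Notch1-titled libraries had a count above 0, so elsewhere the count to match was 0. There a count of 2 in place of 3 was taken as within 1.5 times. Serpinb9 lost its call there in 14 of 18 alternatives and Ctsc in 7 of 19. With the replicate number as a block, the count in Notch1-titled against control and in combined against Zmiz1-titled libraries was 1 in place of 0, through Ctsc (adjusted p = 0.0190 and 0.0280). The labels do not say what the numbers mark: same-numbered libraries had correlations of deviations from -0.18 to 0.27, 6 of 18 pairs were over 0.1, and 8 of 12 libraries correlated best with their own number, a hint from the data and not from the design. Low values of the other replicate 1 libraries shared their steps with control replicate 1 in 26.0% to 27.9% of genes, against 6.62% to 9.06% for replicates 2 and 3. The block was therefore kept as an alternative. In Zmiz1-titled against Notch1-titled libraries the count of 3 was 1 with the filter at 5 FPKM (which leaves out Prf1 and Serpinb9), 1 under median ratio scaling, 1 with only the groups compared (fewer samples), and 1 to 3 without single libraries. Counting Gzma made the count 1 in place of 0 in each of the other 5 pairwise comparisons, which the choice of the set by Gzma fixes. Of 646 recomputed single-gene differences 0 were labelled reversed. For genes other than Gzma that label needed a call in the main or alternative fit, so sign changes of uncalled genes were not counted. Gzma moved by more than its replicate SD under quantile normalization, to -1.47 against the control in Notch1-titled and to 0.70 in combined libraries. For genes under 1 FPKM the pseudocount holds fold changes near 0, and whether depth limited their calls was not tested.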
